A study of Mus musculus with 18 samples.

Results

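The 39 HOX cluster genes were taken from the 52636 genes of the count table as every symbol made of Hoxa, Hoxb, Hoxc or Hoxd followed only by a number, so that antisense and other noncoding transcripts of the clusters were not among them. HOX genes encode homeodomain transcription factors that sit in 4 clusters, HoxA to HoxD, and the order of the genes along each cluster follows the order in which they are used from the head to the tail end of the embryo. Genes with low numbers mark anterior, those in the middle central, and those with high numbers posterior positions, and adult skin keeps part of this code. One member, Hoxc13, also has a role of its own in skin, where it drives the differentiation of the hair shaft.

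The libraries were bulk RNA-Seq of epidermal cells (EpCAM+ CD45- CD140a- CD31-) sorted from mock-treated back skin, from skin next to papillomas after DMBA and repeated TPA ("treated skin"), and from the papillomas themselves ("tumor"), of C57BL/6 mice that entered the protocol as young adults. The labels name keratinocytes as the cell type and whole skin as the source. DMBA is the mutagen and TPA the tumor promoter of the classic 2-step model. Each stage was sampled in Zfp36 fl/fl controls, whose floxed alleles were intact, and in littermates in which Cre driven by the human keratin 14 promoter deleted Zfp36 in epidermal cells (Zfp36 ΔK14 in the labels, written ΔEP here). Zfp36 encodes TTP, which binds AU-rich elements in mRNA and speeds up their decay. Tumors and skin came from the back, and where on the back each was taken was not given in the sources used here, so that stage and position within the back cannot be told apart. Nothing said that the replicates came from separate animals, so that p-values measure the spread between these samples only.

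Of the 18 columns, 2 ΔEP mock columns held the same count in every gene and were used as 1 library, which left 17 libraries of 2808550 to 9617985 counts. Zfp36 averaged 497, 376 and 217 CPM (counts scaled to a common, TMM-adjusted library total) in fl/fl mock skin, treated skin and tumors, and 27.9, 23.9 and 13.8 CPM in the ΔEP groups, so its level went with the labels. Krt14, a basal keratin, was at 604 to 15700 CPM in every library, while leukocyte and endothelial genes summed to at most 20.2 and 39.7 CPM, and fibroblast genes to 151 to 1730 CPM. Several libraries stood apart in such markers. Replicate 1 of both mock groups carried a summed level of 2420 and 2350 CPM over 21 hair shaft and inner root sheath genes, against 21.6, 23 and 29.6 CPM in the other 3 mock libraries, and Krt14 was at 604 and 671 CPM there against 4230 to 4980 CPM. The treated libraries held 521 to 1900 CPM and the tumors 21.3 to 132 CPM of the same hair list. The fl/fl tumors 2 and 3 held 3850 and 7110 CPM of sebaceous gland genes against 204 to 737 CPM in the other 15 libraries. All values below are given so that these libraries can be followed, and the part of these markers in any HOX result was not tested.

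The HOX code of the epidermal cells was mostly anterior and central. At 1 CPM or more, 28 of the 39 members were found in at least 1 library and 7 (Hoxa5, Hoxa7, Hoxb2, Hoxb3, Hoxb4, Hoxb7 and Hoxb8) in every library. All 8 anterior members (positions 1 to 3) and all 15 central members (positions 4 to 8) reached that level somewhere, against 5 of 16 posterior members (positions 9 to 13). By cluster the members reaching it were 8 of 11 in HoxA, 9 of 10 in HoxB, 6 of 9 in HoxC and 5 of 9 in HoxD.

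The end of each cluster was nearly without reads. Of the 12 members at positions 10 to 13, 11 had at most 3 counts in any library, and those 11 together gave 58 counts over all 17 libraries. Hoxa11, Hoxb13, Hoxd12 and Hoxd13, which pattern the distal limb, the tail or the genital region, had no count at all, which with 3 counts as the limit allows up to 0.312 to 1.07 CPM of the unscaled total, depending on the library. No library, tumor or skin, thus held reads of the posterior end beyond a trace at this depth. The exception was Hoxc13.

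On the mouse genome mm10 (coordinates from GENCODE M21, GRCm38), the HoxA members lie at chr6:52155590-52260880 on the minus strand, and the other 3 clusters lie on the plus strand, HoxB at chr11:96194316-96368256, HoxC at chr15:102921103-103036852 and HoxD at chr2:74668310-74765142. The spans run from 96.8 kb (HoxD) to 174 kb (HoxB). Of the 39 members, 16 share exon bases with another listed gene. The share was above 25% of the exon length in 6 of them and highest in Hoxd3 (62.8%, with Hoxd4 and noncoding transcripts), Hoxb3 (52.9%, with the antisense transcript Hoxb3os) and Hoxd4 (52.3%). Whether the counting used strand was not given in the sources used here, so reads of these genes and their antisense partners cannot be told apart, and the levels of Hoxd3, Hoxd4 and Hoxb3 are uncertain. Hoxa7 shares 20.4% of its exon bases with the antisense transcript Hoxaas3, and Hoxa5, Hoxc6 and Hoxc8 share 0%.

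Per kilobase of exon, the order of the members changed with the stage. In the 5 mock libraries Hoxa7 had the highest median, 24.8 CPM per kb (range 13.7 to 36.3), followed by Hoxa5 at 17.4 (8.69 to 21.5) and Hoxb7 at 5.57 (3.97 to 8.48), so that Hoxa7 and Hoxa5 overlapped each other, and Hoxb7 overlapped neither. In the 6 treated libraries Hoxc13 came first at 21.1 CPM per kb (11.1 to 26.5), Hoxb6 next at 9.74 (6.37 to 15.9) and then Hoxa7 at 6.87 (3.72 to 18.1), and these ranges overlapped. In the 6 tumors Hoxa7 led again at 15.8 CPM per kb, but its range of 1.82 to 23.6 overlapped that of Hoxa5 (median 7.60, range 1.05 to 11.2) and of Hoxb7 (2.88, 1.70 to 3.77). The plot of all members by library shows this code.

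The 5 mock libraries did not share 1 HOX profile. Summed over all members, HOX reads were at 337, 262 and 289 CPM in fl/fl and 333 and 234 CPM in ΔEP mock skin, but their makeup differed. HoxA genes gave 20.2% and 21.2% of the HOX sum in replicate 1 of the 2 genotypes and 58.6% to 64.2% in the other 3 libraries, whereas HoxD genes gave 14.8% and 15.3% in replicate 1 and 1.51% to 3.37% in the others. These are the 2 libraries with the hair shaft profile. They were singled out by those hair genes and not by HOX levels, and with 2 against 3 libraries the values below are a description without a test.

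Hoxc13, the hair shaft regulator, was at 67, 4.52 and 3.38 CPM in fl/fl and 67.4 and 3.97 CPM in ΔEP mock skin. Hoxd8, a central member of the HoxD cluster, was at 38.1, 2.75 and 2.22 CPM in fl/fl and 41.4 and 3.6 CPM in ΔEP mock skin. In both genes replicate 1 of each genotype stood over 10-fold above every other mock library, and the genotypes looked alike. Hoxb6, a central member of HoxB, was at 31.2, 7.86 and 8.03 CPM in fl/fl and 26.8 and 9.01 CPM in ΔEP mock skin. Hoxb8, which is also known from grooming behaviour in mice, was at 22.4, 10.8 and 13.6 CPM in fl/fl and 20.8 and 8.65 CPM in ΔEP mock skin.

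The HoxA genes ran the other way. Hoxa7, whose protein is a central member long studied in keratinocytes, was at 39.5, 92.7 and 104 CPM in fl/fl and 39.5 and 71.4 CPM in ΔEP mock skin. For Hoxa5 the values were 16.3, 32.6 and 40.3 CPM in fl/fl and 24.6 and 33.5 CPM in ΔEP mock skin. For Hoxa3, an anterior member needed for thymus and neck structures, they were 4.55, 11.2 and 12.5 CPM in fl/fl and 1.62 and 10.8 CPM in ΔEP mock skin. In these 3 genes both replicate 1 libraries lay below the other 3. Over the whole set, 9 members were lower in both replicate 1 libraries without overlap (among them Hoxa2 to Hoxa7, Hoxc4 and Hoxc5), beside 30.3% of all tested genes, and 9 of the tested members were higher (Hoxb3, Hoxb5, Hoxb6, Hoxb7, Hoxb8, Hoxc8, Hoxc13, Hoxd3 and Hoxd8), beside 28.6% of all tested genes. The other 3, which were too low to test (Hoxa10, Hoxd1 and Hoxd9), were also higher, at 1.08 CPM or less. The lower members were thus HoxA and HoxC genes and the tested higher ones HoxB, HoxC and HoxD genes, in a background where most genes separated these libraries.

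Some other markers moved with the same split. Lef1, a transcription factor of the hair matrix, was at 199 and 194 CPM in replicate 1 of the 2 genotypes against 2.32 to 5.89 CPM in the other mock libraries. The summed list of 10 hair matrix regulators that holds Lef1 ran only from 831 to 1220 CPM over the 5 mock libraries. Dcn, a fibroblast gene, was at 845 and 976 CPM against 47.1 to 97.2 CPM, while the summed fibroblast list ran from 523 to 1730 CPM and overlapped between the 2 sets. Fewer cells of a type and less RNA per cell cannot be told apart in such bulk libraries.

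**Figure D1:**
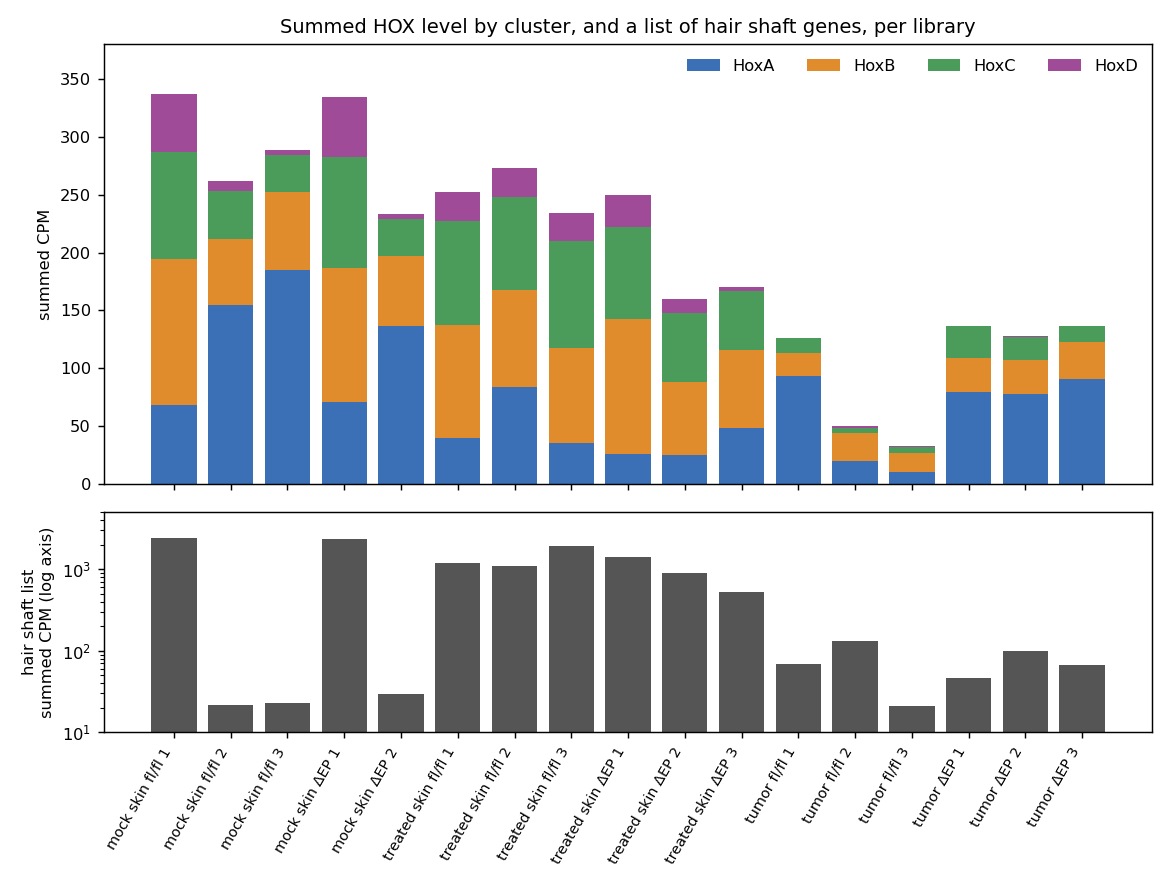
Summed CPM of the HoxA, HoxB, HoxC and HoxD members per library (upper panel, stacked bars from 0) and summed CPM of 21 hair shaft genes (lower panel, log axis). The 2 mock libraries with hair shaft sums of 2350 CPM or more have the smallest HoxA bars of the mock libraries, and the fl/fl tumors 2 and 3 have the lowest HOX sums, 49.9 and 32.8 CPM.

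Treated skin was compared with mock skin to ask what repeated DMBA and TPA did to epidermis beside the tumors. HoxA levels were lower on average, and the other clusters were close to mock skin. With the genotypes combined, no HOX gene of 24 tested was called by the quasi-likelihood test of edgeR (over 2-fold at a Benjamini-Hochberg adjusted p under 0.05), where 0.0822% of all genes were called higher and 0% lower. At an unadjusted p under 0.05, 6 members were lower (among them Hoxa2, Hoxa3, Hoxa5, Hoxa6 and Hoxa7) and 0 higher, beside 6.77% and 3.86% of all genes. The median log2 change was -1.40 over the 8 tested HoxA members, -0.02 over 8 HoxB, -0.07 over 5 HoxC and -0.32 over 3 HoxD members, and -0.02 over all genes.

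Hoxa5, a central member also known for its role in lung and vertebrae, came closest. Treated skin held 11, 13.8 and 8.76 CPM in fl/fl and 6.64, 8.88 and 8.12 CPM in ΔEP treated skin. Every treated library lay below every mock library, which held for this 1 member and for 0.433% of all tested genes, and 0 members were higher in every treated library, against 0.877%. The log2 difference was -1.65 ± 0.32 (SE), with an adjusted p of 0.0612 in edgeR's quasi-likelihood test. DESeq2 called it on the same libraries (log2 -1.63, adjusted p = 0.000153), and it was the single HOX call of that tool, beside 1.42% of all genes.

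Hoxa7 was at 21.1, 52.2 and 18.4 CPM in fl/fl and 13.8, 10.7 and 30.3 CPM in ΔEP treated skin. Its treated values overlapped those of the mock libraries. Hoxa3 was at 2.17, 5.26 and 3.4 CPM in fl/fl and 1.44, 2.48 and 1.86 CPM in ΔEP treated skin, and Hoxa2, which patterns the second arch of the embryonic head, was at 2.28, 2.63 and 1.44 CPM in fl/fl and 0.718, 1.57 and 1.69 CPM in ΔEP treated skin. Hoxa2 had been at 1.22, 8.45 and 9.28 CPM in fl/fl and 1.08 and 4.69 CPM in ΔEP mock skin, and its treated values overlapped those of mock skin in each genotype.

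The mock libraries used decided the result. Without mock replicate 1 of both genotypes, 9 HOX genes were called (3 higher, 6 lower), beside 13.1% of all genes in either direction. The 3 higher were Hoxc13 (log2 3.62, adjusted p = 0.000248), Hoxd8 (2.17, adjusted p = 0.0312) and Hoxb6 (1.26, adjusted p = 0.0221), and the 6 lower were the same 6 HoxA genes that passed the unadjusted threshold in all libraries, among them Hoxa3 (-2.11), Hoxa5 (-1.90) and Hoxa6 (-1.68). All 6 treated libraries had hair shaft sums of 521 CPM or more and the remaining mock libraries 29.6 CPM or less. Treatment and the level of hair shaft genes thus cannot be told apart in that comparison.

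Hoxc13 showed this most plainly, at 60.8, 50.2 and 65.1 CPM in fl/fl and 53.8, 38.5 and 27.2 CPM in ΔEP treated skin. All 6 values lay between the 2 high and the 3 low mock libraries. Hoxd8 was at 16.4, 18.9 and 17.1 CPM in fl/fl and 21, 6.92 and 3.38 CPM in ΔEP treated skin, and its 2 lowest treated values, in ΔEP replicates 2 and 3, went with the 2 lowest hair shaft sums of the treated libraries, 910 and 521 CPM.

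Tumors were compared with both kinds of skin to ask how the HOX code changed with neoplastic growth. With the genotypes combined, the tested HoxB and HoxD genes and 3 of 5 tested HoxC genes were lower in tumors than in both kinds of skin, and HoxA genes were called lower against mock skin alone. In this fit edgeR called 18 of 24 tested HOX genes lower and 0 higher than in mock skin, where 14.9% of all genes were called lower and 9.37% higher. Against treated skin 14 were called lower and 0 higher, where 15% of all genes were lower and 9.78% higher. The 14 comprised all 8 tested HoxB genes, 3 of 5 HoxC genes and all 3 tested HoxD genes, and 0 of 8 HoxA genes.

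The change lay further below 0 than over all genes. Its median log2 value over the 24 members was -1.89 against mock skin, or -1.78 with 4 members that had no count in a whole tumor group set to the limit of 3 counts, and -0.11 over all genes. Against treated skin it was -1.28 over the members, or -1.23 with those limits, and -0.04 over all genes. Without mock replicate 1 of both genotypes 17 members were called lower than mock skin, beside 29.9% of all genes called in either direction, with Hoxb3 (-0.69), Hoxb7 (-0.70), Hoxc13 and Hoxd3 no longer among them. Without ΔEP mock replicate 1 the log2 difference of Hoxb3 was -0.89 (adjusted p = 0.0875) and that of Hoxb7 -0.82, under the 2-fold threshold. Without ΔEP mock replicate 2, Hoxa2 (-1.91, adjusted p = 0.0636) and Hoxa3 (-0.89, adjusted p = 0.309) were no longer called. Without the fl/fl tumors 2 and 3, an alternative chosen after their sebaceous genes were seen, 14 were called lower than mock skin (25.3% of all genes called in either direction), and 13 lower and 2 higher (Hoxa7 and Hoxa9) than treated skin (26.9% of all genes).

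Within each genotype the tests had fewer libraries and gave fewer calls. In fl/fl mice 1 of 20 tested members was lower in tumors than in mock skin (1.88% of all genes) and 0 higher (2.22%). DESeq2 called 12 lower there, where it called 14.3% of all genes in either direction and edgeR 4.11%. Against treated skin edgeR called 13 of 19 lower (10.5%) and 0 higher (7.5%). In ΔEP mice 5 of 20 were lower in tumors than in mock skin (Hoxb4, Hoxb5, Hoxb6, Hoxc13 and Hoxd8, beside 7.22% of all genes) and 0 higher (7.05%), and 8 of 18 were lower than in treated skin (15.5%) and 2 higher (10.5%). Treated and mock skin gave 0 calls within either genotype, with 3 members lower at an unadjusted p under 0.05 in fl/fl mice (Hoxa3, Hoxa5 and Hoxa7, beside 2.31% of all genes) and 2 in ΔEP mice (Hoxa5 and Hoxa7, beside 3.37%), and 0 higher in either (beside 3.19% and 1.43%). DESeq2 gave 0 and 1 call there, beside 0.711% and 0.384% of all genes in either direction.

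Hoxb6 illustrates the HoxB genes. Treated skin held 21.3, 16.2 and 23.3 CPM in fl/fl and 31.2, 17 and 12.5 CPM in ΔEP treated skin, and tumors 3.01, 0.916 and 1.31 CPM in fl/fl and 2.68, 4.17 and 4.56 CPM in ΔEP tumors. The highest tumor lay below the lowest skin library. Against treated skin, the log2 difference was -3.05 ± 0.45 (SE), adjusted p = 0.00017 in edgeR's quasi-likelihood test, and against mock skin it was -2.79 ± 0.47, adjusted p = 0.00045.

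Hoxb5, its neighbour, was at 8.99, 3.34 and 3.58 CPM in fl/fl and 4.6 and 2.52 CPM in ΔEP mock skin. In treated skin it stood at 6.3, 5.7 and 3.92 CPM in fl/fl and 8.07, 3.65 and 3.04 CPM in ΔEP treated skin. In tumors it fell to 0, 0.611 and 0 CPM in fl/fl and 0.671, 0.181 and 0.38 CPM in ΔEP tumors, which is 0 to 4 counts per tumor. This was the steepest HoxB change against treated skin (log2 -3.77 ± 0.53, adjusted p = 0.000111, edgeR).

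Against mock skin, Hoxb7 changed least among the HoxB genes. It was at 13.1, 7.27 and 8.61 CPM in fl/fl and 12.7 and 6.13 CPM in ΔEP mock skin and 10.9, 10.1 and 8.11 CPM in fl/fl and 12.4, 8.36 and 11.2 CPM in ΔEP treated skin. The tumors held 4.51, 4.12 and 2.62 CPM in fl/fl and 5.82, 5.63 and 4.37 CPM in ΔEP tumors, all below every skin library, and the log2 difference from treated skin was -1.19 ± 0.24 (adjusted p = 0.00149, edgeR). Hoxb8 behaved likewise, with 16.7, 16.9 and 15.2 CPM in fl/fl and 16.9, 9.01 and 11 CPM in ΔEP treated skin and 1.0, 5.19 and 4.92 CPM in fl/fl and 2.24, 6.35 and 3.04 CPM in ΔEP tumors.

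The more anterior HoxB genes kept levels of a few CPM. Hoxb2, which acts in the hindbrain, was at 14.3, 6.48 and 9.28 CPM in fl/fl and 10.3 and 13 CPM in ΔEP mock skin, at 9.66, 7.89 and 7.19 CPM in fl/fl and 15.8, 5.22 and 9.81 CPM in ΔEP treated skin and at 3.01, 3.51 and 1.97 CPM in fl/fl and 6.93, 4.36 and 3.42 CPM in ΔEP tumors. Hoxb3, where antisense reads may be included, was at 16.1, 8.25 and 8.22 CPM in fl/fl and 14.1 and 4.69 CPM in ΔEP mock skin, at 15.5, 9.87 and 12.4 CPM in fl/fl and 17.6, 8.62 and 7.1 CPM in ΔEP treated skin and at 3.01, 5.65 and 3.28 CPM in fl/fl and 3.35, 4.17 and 3.61 CPM in ΔEP tumors. Hoxb4, known from blood stem cells, was at 9.88, 4.52 and 6.29 CPM in fl/fl and 17.3 and 10.8 CPM in ΔEP mock skin, at 7.49, 5.92 and 4.71 CPM in fl/fl and 11.8, 8.36 and 6.42 CPM in ΔEP treated skin and at 3.01, 1.53 and 2.29 CPM in fl/fl and 4.25, 3.99 and 6.46 CPM in ΔEP tumors. Tumors had lower means in all 3, with log2 differences from treated skin of -1.29, -1.59 and -1.17 that were all called, but Hoxb2 and Hoxb4 overlapped between single tumor and treated libraries.

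Hoxb9 was the one HoxB gene with reads at a posterior position. It was at 9.55, 7.86 and 9.28 CPM in fl/fl and 8.93 and 4.69 CPM in ΔEP mock skin and 9.56, 10.5 and 7.32 CPM in fl/fl and 3.23, 2.61 and 6.93 CPM in ΔEP treated skin. The tumors were uneven, with 0, 1.83 and 0.328 CPM in fl/fl and 3.8, 0.363 and 5.51 CPM in ΔEP tumors, so that 2 ΔEP tumors overlapped the skin libraries. Hoxb1, the anterior end of the cluster, had 3 counts in fl/fl tumor 1 and stayed at 0.52 CPM or less elsewhere.

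The central HoxC genes split into 2 that fell and 2 that were not called. Hoxc6 varied little in skin, at 5.99, 9.04 and 6.19 CPM in fl/fl and 5.96 and 5.05 CPM in ΔEP mock skin and 6.41, 5.04 and 7.32 CPM in fl/fl and 7.18, 4.96 and 4.73 CPM in ΔEP treated skin. No read was found in the 3 fl/fl tumors, and the ΔEP tumors held 3.13, 1.81 and 1.14 CPM. With 3 counts per library as the limit, fl/fl tumors were at least 7.2-fold below the fl/fl mock mean and at least 6.37-fold below the fl/fl treated mean. Hoxc6 was the 1 HOX gene called in fl/fl tumors against mock skin alone (adjusted p = 0.0185, edgeR). That call was lost with a replicate block (adjusted p = 0.0889, edgeR). It was also lost without fl/fl mock 2 or 3 or fl/fl tumor 2 or 3 (adjusted p of 0.0706 to 0.1). Hoxc8 was at 15.1, 11.8 and 14.2 CPM in fl/fl and 18.4 and 13.7 CPM in ΔEP mock skin and 16, 15.1 and 13.5 CPM in fl/fl and 13.5, 11 and 10.8 CPM in ΔEP treated skin, and at 5.52, 0.611 and 1.64 CPM in fl/fl and 8.72, 7.26 and 1.52 CPM in ΔEP tumors, with no overlap between tumor and skin. Over the 5 mock libraries Hoxc6 ranged from 5.05 to 9.03 CPM and Hoxc8 from 11.8 to 18.4 CPM, the latter higher in both replicate 1 libraries than in the other 3.

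Hoxc4 and Hoxc5 were not called against either kind of skin. Hoxc4 was at 1.78, 8.45 and 4.54 CPM in fl/fl and 1.35 and 6.13 CPM in ΔEP mock skin, at 1.96, 5.26 and 2.22 CPM in fl/fl and 0.718, 2.09 and 3.89 CPM in ΔEP treated skin and at 3.01, 0.458 and 0.655 CPM in fl/fl and 5.14, 5.26 and 4.18 CPM in ΔEP tumors. Hoxc5, which shares 5.37% of its exon bases with Hoxc10, was at 1.89, 4.52 and 2.71 CPM in fl/fl and 2.17 and 3.25 CPM in ΔEP mock skin, at 3.37, 3.29 and 2.22 CPM in fl/fl and 2.69, 2.48 and 3.04 CPM in ΔEP treated skin and at 4.51, 0.153 and 0.328 CPM in fl/fl and 6.04, 4.54 and 5.51 CPM in ΔEP tumors. Within the fl/fl tumors the first replicate lay apart from the other 2 in both genes. Hoxc9 stayed at 2.75 CPM or less in all libraries and had no count in the fl/fl tumors.

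Hoxc13 held 0, 3.67 and 2.29 CPM in fl/fl and 2.68, 1.27 and 0.95 CPM in ΔEP tumors, all below every treated library. The log2 difference from treated skin was -4.63 ± 0.85 (adjusted p = 0.000754, edgeR) and from mock skin -3.94 ± 0.85 (adjusted p = 0.00252). The second call rested on the mock libraries with high hair shaft sums. Without mock replicate 1 of both genotypes the log2 difference was -1.03, and without ΔEP mock replicate 1 alone -2.40, each with 1 ΔEP mock library left. The 3 other mock libraries, at 3.38 to 4.52 CPM, overlapped fl/fl tumor 2. The hair shaft list moved with it, with 14 of 20 tested genes called lower in tumors than in treated skin and 0 higher, and its part in the Hoxc13 result was not tested.

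HoxD reads almost vanished. Summed over the 9 members, tumors held 0.50, 1.22 and 0.33 CPM in fl/fl and 0.22, 0.36 and 0 CPM in ΔEP mice, against 4.06 to 27.8 CPM in treated and 4.33 to 51.2 CPM in mock skin. Hoxd8 had 1 tumor library with any read, fl/fl replicate 2 at 1.07 CPM. With 3 counts per library as the limit (mean 0.595 CPM), ΔEP tumors were at least 37.8-fold below the ΔEP mock mean of Hoxd8, 22.5 CPM. They were at least 17.5-fold below the ΔEP treated mean, 10.4 CPM. These folds hold for the means, as single ΔEP libraries ran from 3.61 to 41.4 CPM in mock and from 3.38 to 21 CPM in treated skin. Hoxd4 was at 6.22, 5.11 and 1.35 CPM in fl/fl and 4.6 and 0.36 CPM in ΔEP mock skin and 4.45, 3.95 and 4.05 CPM in fl/fl and 2.69, 1.83 and 0.507 CPM in ΔEP treated skin, and tumors had a single read between them, in fl/fl replicate 2 (0.15 CPM). Hoxd3, whose exons overlap those of Hoxd4, was at 3.77, 0.786 and 0.58 CPM in fl/fl and 3.25 and 0 CPM in ΔEP mock skin and 2.82, 1.53 and 2.22 CPM in fl/fl and 1.79, 2.09 and 0 CPM in ΔEP treated skin. It had no read in any tumor. The 3 mock libraries with hair shaft sums of 21.6 to 29.6 CPM held Hoxd8 at 2.22 to 3.60 CPM, above each of the 6 tumors, whose hair shaft sums were 21.3 to 132 CPM. The part of hair cells in the Hoxd8 result was not tested.

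Of 8 tested HoxA genes 4 were called lower in tumors than in mock skin (median log2 -1.72) and 0 in either direction against treated skin (median -0.17). Hoxa7 was at 67.7, 12.1 and 5.24 CPM in fl/fl and 46.7, 44.1 and 58.1 CPM in ΔEP tumors. All but fl/fl tumors 2 and 3 lay within the range of mock skin, 39.5 to 104 CPM. Hoxa5 was at 11.5, 4.89 and 1.97 CPM in fl/fl and 17, 20.9 and 21.1 CPM in ΔEP tumors, lower than mock skin with both genotypes combined (log2 -1.46 ± 0.33, adjusted p = 0.00324, edgeR) and not called against treated skin (0.19 ± 0.32, adjusted p = 0.65). In ΔEP mice alone, tumors were higher than treated skin in Hoxa5 (log2 1.21 ± 0.23, adjusted p = 0.00467) and Hoxa7 (1.37 ± 0.34, adjusted p = 0.0151), the 2 HOX genes called higher in any of the 15 comparisons, where 10.5% of all genes were called higher. The fit of all groups gave Hoxa7 an adjusted p of 0.148, and its call was lost without ΔEP treated replicate 2 (adjusted p = 0.0525) or ΔEP tumor 3 (0.0593).

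Of the remaining HoxA genes, Hoxa2 and Hoxa6 were called lower in tumors than in mock skin, as was Hoxa3 (log2 -1.83 ± 0.57, adjusted p = 0.02, edgeR; adjusted p = 0.057 without fl/fl tumor 2 and 0.0522 without fl/fl tumor 3). Hoxa2 was at 0.502, 0.153 and 0.655 CPM in fl/fl and 1.34, 1.27 and 1.14 CPM in ΔEP tumors, and Hoxa6 at 0.502, 0.305 and 0.655 CPM in fl/fl and 1.12, 2.0 and 0.76 CPM in ΔEP tumors. Hoxa6 had been at 2.33, 3.93 and 8.03 CPM in fl/fl and 2.17 and 4.69 CPM in ΔEP mock skin and 2.17, 3.29 and 1.18 CPM in fl/fl and 1.61, 0.783 and 1.52 CPM in ΔEP treated skin. Hoxa4 stayed at 3.97 CPM or less and was not called. Hoxa9, the most posterior HoxA gene with more than 3 counts in a library and one known from leukaemia, was at 1.33, 1.57 and 4.16 CPM in fl/fl and 0.812 and 0.721 CPM in ΔEP mock skin and 0.217, 2.63 and 1.05 CPM in fl/fl and 0.897, 0.131 and 1.18 CPM in ΔEP treated skin. It was highest in 2 tumors, with 9.53, 2.29 and 0.328 CPM in fl/fl and 6.04, 0.363 and 3.04 CPM in ΔEP tumors, and was not called (log2 1.86 ± 0.78 against treated skin, adjusted p = 0.0663, edgeR).

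Counted over single libraries, 8 members (Hoxb5, Hoxb6, Hoxb7, Hoxb8, Hoxc6, Hoxc8, Hoxd4 and Hoxd8) were lower in all 6 tumors than in all 11 skin libraries, as were 5.28% of all tested genes. These 8 were all central members. None was higher in all tumors, as were 7.16% of all tested genes. Against treated skin alone the members lower in every tumor numbered 10 (10.3% of all tested genes) and against mock skin alone 9 (8%), with 0 higher in each, where 10.7% and 9.42% of all tested genes were higher. The number of members at 1 CPM or more was 20 to 25 in skin libraries, 14, 11 and 10 in the fl/fl tumors and 20, 18 and 17 in the ΔEP tumors. Markers of fibroblasts moved in part in the same direction. The list of 9 fibroblast genes summed to 151 to 538 CPM in tumors against 445 to 1730 CPM in skin. Dcn was at 0.19 to 10.1 CPM in tumors against 47.1 to 976 CPM in skin. Of the 9 genes, 4 were called lower than in mock skin (14.9% of all genes) and 1 lower than in treated skin (15%), with 0 higher. Their median log2 difference from treated skin was -0.33, and it was -0.01 over the 8 tested in ΔEP mice alone. The part of these cells in the HOX result was not tested.

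**Figure D2:**
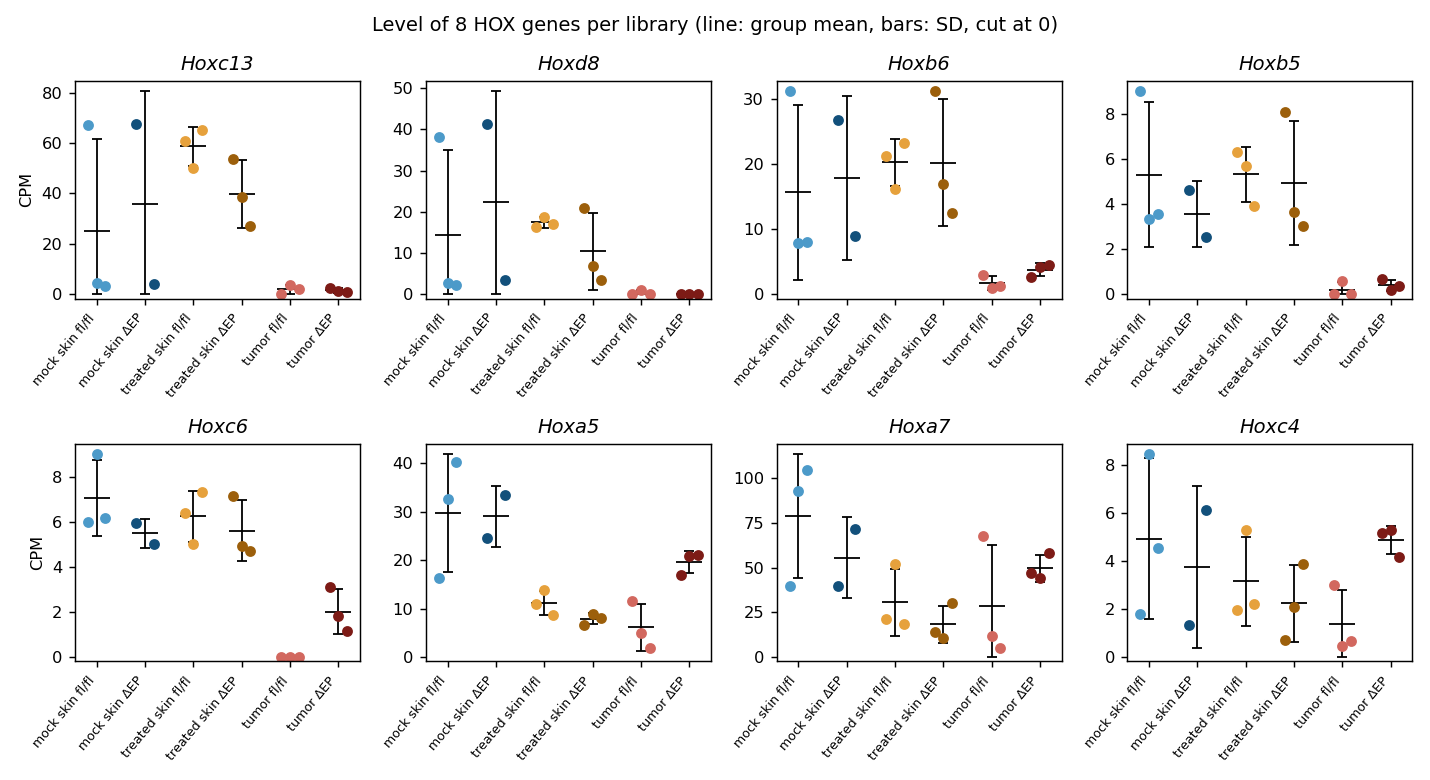
Level of 8 HOX genes in CPM by group, 1 point per library, with the group mean (line) and SD (bars, cut at 0). Hoxc13 and Hoxd8 separate 1 mock library of each genotype from the others, Hoxb5 and Hoxb6 are lower in all tumors than in all skin libraries, Hoxc6 is at 0 in the 3 fl/fl tumors, and Hoxa5, Hoxa7 and Hoxc4 are closer to skin levels in the ΔEP tumors than in most fl/fl tumors.

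**Figure D3:**
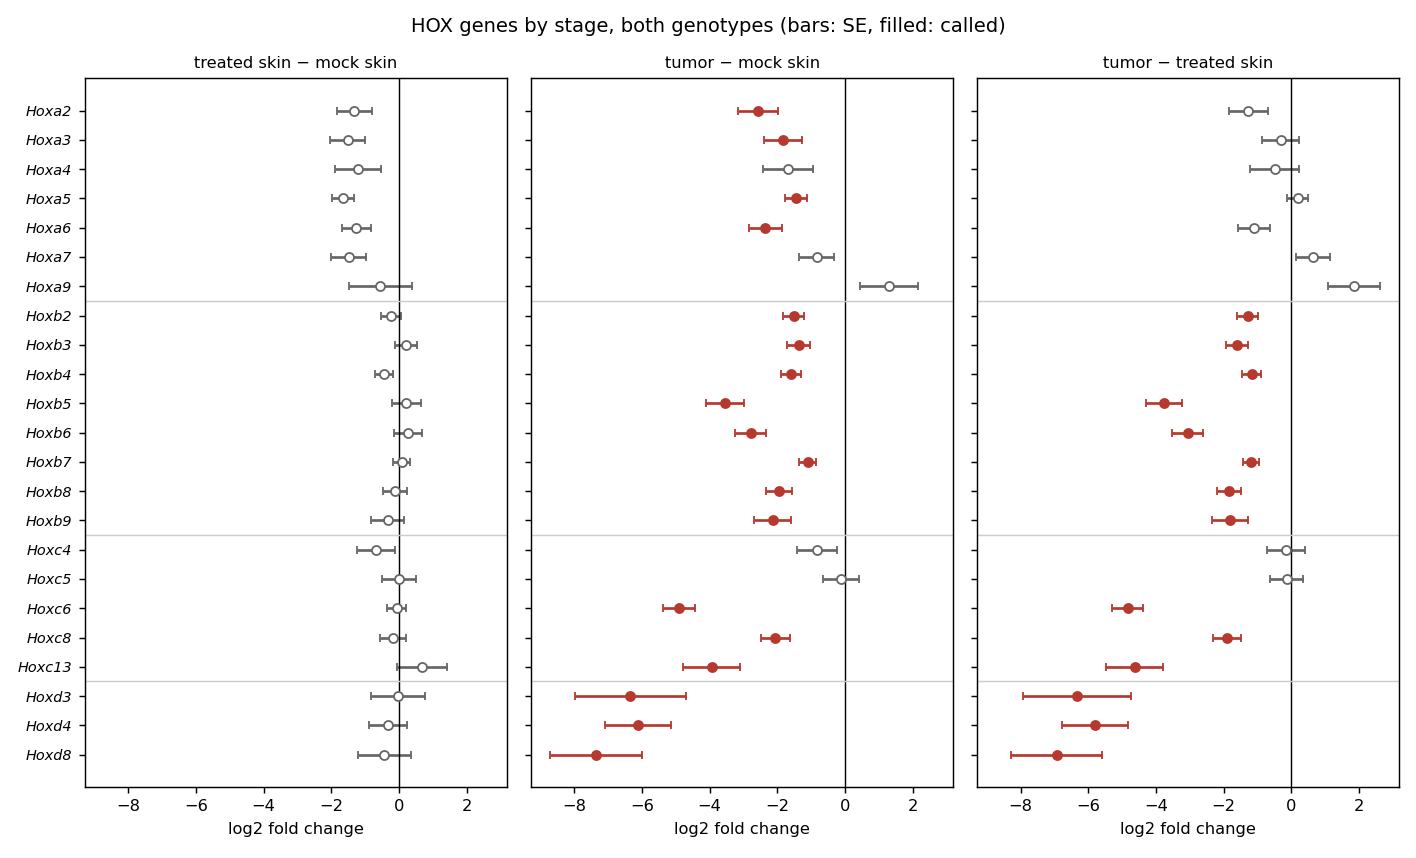
Log2 fold change with SE of tested HOX genes for 3 stage comparisons with the genotypes combined, with filled points for called genes. All 8 HoxB and all 3 HoxD points are filled in both tumor panels. The estimates and SE of Hoxc6, Hoxd3, Hoxd4 and Hoxd8 depend on the prior count of the fit because a tumor group had no read.

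The genotype comparison asked whether the loss of Zfp36 changed HOX levels at each stage. No HOX gene was called in mock skin (23 tested), treated skin (21 tested) or tumors (16 tested) by edgeR's quasi-likelihood test. Over all genes tested, 0% of them were called higher in ΔEP mock skin and 0% lower, 0% higher and 0.00616% lower in ΔEP treated skin, and 0.0213% higher and 0.00711% lower in ΔEP tumors. DESeq2 called 0 HOX genes in the 3 comparisons as well, beside 0.0188%, 0.222% and 2.62% of all genes in either direction. At an unadjusted p under 0.05, 0 members passed in mock skin, beside 1.36% of all genes higher and 0.232% lower in ΔEP mice. In treated skin 3 were lower in ΔEP mice (Hoxb9, Hoxc13 and Hoxd4, beside 3.49% of all genes) and 0 higher (beside 2.06%). In tumors 5 were higher in ΔEP mice (among them Hoxa3, Hoxa5, Hoxb4 and Hoxc4, beside 6.88% of all genes) and 0 lower (beside 7.16%).

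In tumors the estimates pointed to higher levels in ΔEP mice. Of the 16 tested members 12 had an estimate above 0, as did 6800 of all 14067 genes tested. The median was 1.11 on the log2 scale against -0.02 over all genes. Hoxa3 was at 3.51, 0.305 and 0.328 CPM in fl/fl and 4.47, 4.36 and 3.8 CPM in ΔEP tumors, with fl/fl tumor 1 just under the ΔEP tumors. Hoxa5 had a log2 difference of 1.64 ± 0.50 (SE, adjusted p = 0.249, edgeR) and Hoxc4 one of 2.00 ± 0.65 (adjusted p = 0.258).

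Over single libraries, 10 members were higher in all 3 ΔEP tumors than in all 3 fl/fl tumors (among them Hoxa2, Hoxa3, Hoxa5, Hoxa6, Hoxb4, Hoxc4, Hoxc5, Hoxc6 and Hoxc9), where 11.6% of all tested genes did so. None was lower in all 3, as were 4.92% of all tested genes. Hoxc6, with no read in fl/fl tumors and 3.13, 1.81 and 1.14 CPM in ΔEP tumors, was too low to be tested in the fit of the 6 tumors. The edgeR fit of all groups called it higher (adjusted p = 0.0158), the 1 HOX call of that fit between tumor genotypes, beside 0.668% of all genes. HoxA genes gave 79.2, 77.7 and 91.2 CPM in the ΔEP tumors and 93.8, 20.5 and 10.5 CPM in the fl/fl tumors.

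The fl/fl tumors were not alike, and 1 library decided the outcome. Fl/fl tumor 1, the library with the fewest counts and the fewest detected genes (19219), had a HoxA sum above that of all 3 ΔEP tumors. Without it 7 members were called higher in ΔEP tumors, among them Hoxa3, Hoxa5, Hoxa7, Hoxb6, Hoxc4 and Hoxc5, with log2 differences from 1.72 (Hoxb6) to 4.41 (Hoxc5), and 16.9% of all genes were called in either direction. The 2 libraries that then made up the fl/fl group were those with sebaceous gland genes at 3850 and 7110 CPM, against 204 to 314 CPM in the other 4 tumors. Without fl/fl tumor 2 or 3, 0 were called. Pitx1, a homeobox gene of the hindlimb and the mouth, split the tumors in the same way, at 47.2, 0.15 and 0.66 CPM in fl/fl and 47.4, 16.3 and 8.74 CPM in ΔEP tumors, and stood at 0 to 0.52 CPM in all skin libraries. Cd34, a marker of bulge stem cells, did so as well, at 137, 5.65 and 7.21 CPM in fl/fl and 136, 57.5 and 232 CPM in ΔEP tumors. The list of hair follicle stem cell genes that holds Cd34 summed to 499 to 894 CPM over the tumors. Its median log2 difference between tumor genotypes was 0.04 over 8 tested genes, with 0 called. The part of these markers in the HOX difference was not tested.

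**Figure D4:**
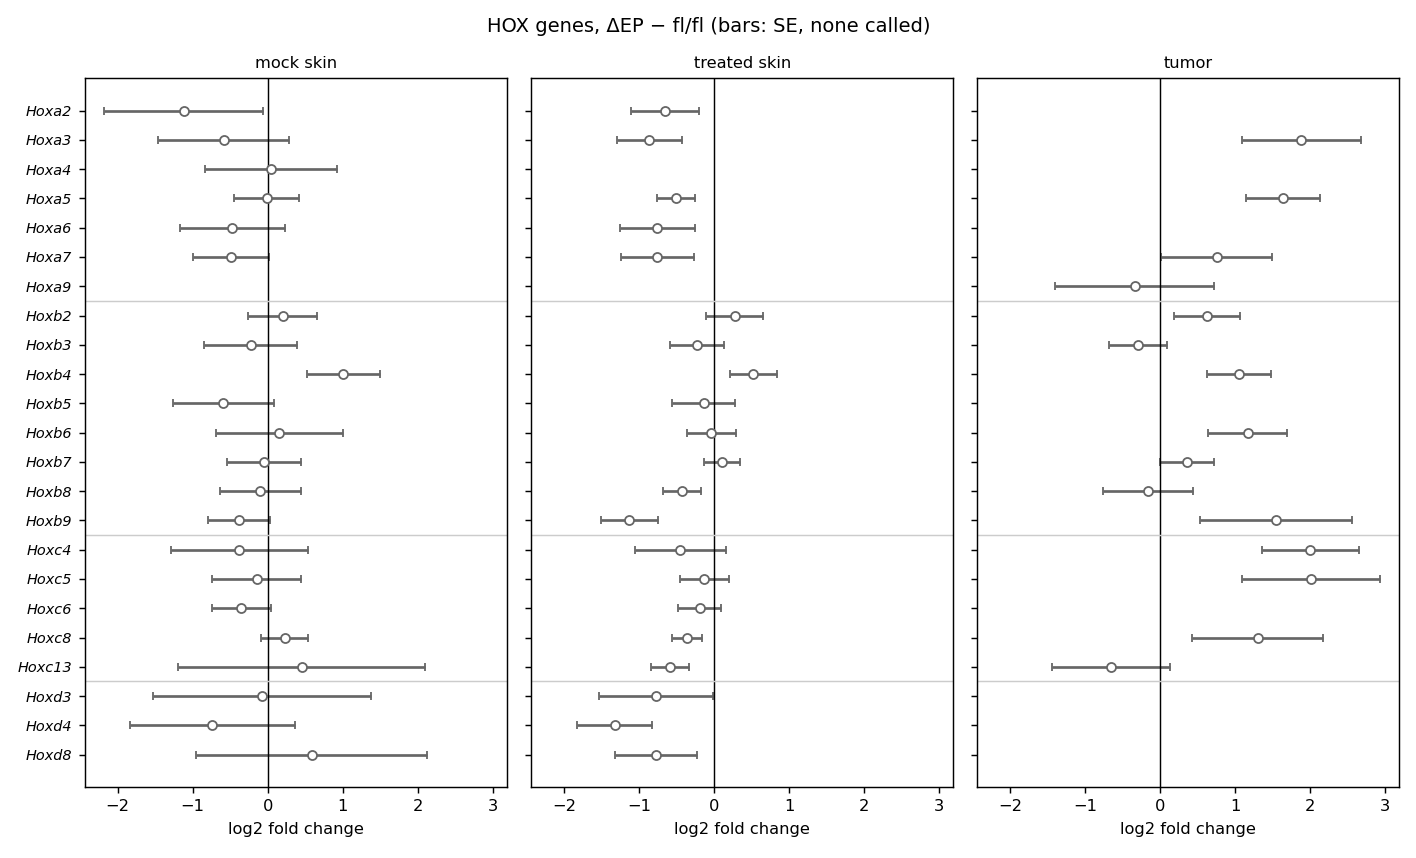
Log2 difference of ΔEP from fl/fl with SE for tested HOX genes in mock skin, treated skin and tumors on a common axis. No gene was called, and in tumors most estimates lie above 0, with Hoxc4 at 2.00.

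Whether a stage change differed between genotypes was tested with the contrast of both changes. No HOX gene was called for treated against mock skin (24 tested), tumor against mock skin (24 tested) or tumor against treated skin (23 tested) in edgeR, where 0%, 0% and 0.0118% of all genes were called higher and 0% lower in each. At an unadjusted p under 0.05 the numbers of members were 0, 1 (Hoxc6) and 9, all with a higher value in ΔEP, beside 0.509%, 2.81% and 5.81% of all genes higher and 0.944%, 5.38% and 7.37% lower. DESeq2 called 0, 0 and 2, beside 0%, 0.161% and 1.21% of all genes in either direction. Hence the HoxA genes called higher in ΔEP tumors against ΔEP treated skin were not shown to differ from fl/fl in that change.

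TTP recognises the heptamer UAUUUAU, written TATTTAT in DNA letters, and for each gene the longest 3′ untranslated region in GENCODE M21 was searched for it (transcribed strand only, overlapping matches counted). It was present in 18 of the 39 members (46.2%), against 27.4% of 21186 genes, with a median length of 966 bases in the members and 1084 in all genes. Of the 10 members that were higher in every ΔEP tumor, 6 held it. It was also present in 11 of the 16 members tested between tumor genotypes. The estimate was above 0 in 9 of these 11, in 3 of the 5 tested members without it and in 6800 of all 14067 genes tested. Hoxb3 (log2 -0.30) and Hoxc13 (-0.65) were among the 11. The longer motif TTATTTATT, which contains the heptamer, was present in 3 of the 39 members (7.69%), against 7.58% of all genes. These were Hoxb2, Hoxd3 and Hoxd13, so that none of the members higher in every ΔEP tumor held the longer motif. A match is a description of the sequence and not a binding site. The part of TTP in any HOX difference was not tested. The matches of 4 of the 6 higher members, Hoxa3, Hoxa5, Hoxc4 and Hoxc6, are printed as examples. Matches of other members, such as 3 in Hoxb3 and 1 in Hoxc13, are not printed. The heptamer is in capitals with 8 flanking bases on each side, 5′ to 3′ on the transcript.
Hoxa3, chr6:52169412-52169434 (minus strand): gtcagattTATTTATattttttg
Hoxa3, chr6:52169367-52169389 (minus strand): ttaaatatTATTTATccccatcc
Hoxa3, chr6:52169347-52169369 (minus strand): tccgttcgTATTTATattaaaga
Hoxa5, chr6:52202319-52202341 (minus strand): ttttaactTATTTATatgaagca
Hoxc4, chr15:103036049-103036071 (plus strand): ttgactctTATTTATagaattta
Hoxc4, chr15:103036311-103036333 (plus strand): ggggggggTATTTATtttttaag
Hoxc6, chr15:103011100-103011122 (plus strand): acactctgTATTTATctctggca
Hoxc6, chr15:103011647-103011669 (plus strand): ggtctctgTATTTATatttatgt
Hoxc6, chr15:103011653-103011675 (plus strand): tgtatttaTATTTATgtttagca
The 4 genes differ in number and place of the motif, with 3 matches in Hoxa3 and Hoxc6, 2 in Hoxc4 and 1 in Hoxa5. In Hoxc6 the last 2 matches overlap by a base. Of the 4 others that were higher in every ΔEP tumor, among them Hoxa2, Hoxa6 and Hoxc9, none held it in this window.

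Proteins that work with HOX factors were read from lists, beside the 14.9% of all genes lower and 9.37% higher in tumors than in mock skin and the 15% lower and 9.78% higher than in treated skin. Of 9 TALE cofactors, which bind DNA together with HOX proteins, 8 were tested and 2 were lower in tumors than in mock skin, Meis1 (log2 -1.43 ± 0.31, adjusted p = 0.0024, edgeR) and Pknox2 (-2.28 ± 0.77, adjusted p = 0.0304), and 0 were higher. Of 18 chromatin regulators of the clusters, all tested, 5 were lower and 0 higher against mock skin and against treated skin. Among them were the Polycomb genes Cbx2, Ezh1 and Cbx7, and Cbx2 fell most (log2 -2.68 ± 0.39 against mock skin, adjusted p = 0.000153, edgeR). Cbx2 was at 0.50 to 4.70 CPM in tumors and 12 to 35.9 CPM in skin.

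Of 16 noncoding transcripts of the clusters 7 were tested, and 4 were lower and 1 higher in tumors than in mock skin, beside the same 14.9% and 9.37% of all genes. Hoxb3os, Hoxd3os1 and Hoxb5os, which lie in the HoxB and HoxD clusters, were lower together with their neighbours, at 3.93 to 7.60, 0 to 0.15 and 0 to 0.61 CPM in tumors. Hoxb3os was at 10.8 to 23 CPM in skin. Halr1, at the edge of HoxA, was higher (log2 2.66 ± 0.70 against mock skin, adjusted p = 0.0081, edgeR), at 0.98 to 5.52 CPM in tumors and 0 to 1.01 CPM in skin. Between the tumor genotypes 3 of the 16 were tested and 0 called. Several of these transcripts overlap members on the other strand, and reads of such pairs cannot be told apart here.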

How the data were processed

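The authors deposited 1 table of raw counts (whole reads per gene). The submitters' processing notes name Trimmomatic 0.36, STAR 2.5.3, HTSeq 0.9.1, DESeq2 and the build mm10. Libraries came from an Ovation SoLo kit. The annotation release, strand setting and duplicate handling were not given in the sources used here.

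Counts were tested with edgeR 4.0.16 (filterByExpr, TMM, quasi-likelihood F test, R 4.3.3), fitted on the whole table and adjusted by Benjamini-Hochberg over all genes tested. Calls needed an adjusted p under 0.05 and over 2-fold. Pairwise fits used the groups compared, genotype differences of a change 4 groups, and combined comparisons all 6 groups. Levels are CPM on TMM-scaled totals, "expressed" means 1 CPM or more, and limits from 3 counts cover counting error only. The SE values are the size of the log2 difference divided by the square root of the quasi-likelihood F statistic. They thus include the spread between libraries. Scripts were tested on simulated data. Values per library were given for members of at least 5 CPM anywhere or called. From each of 16 lists at most 4 genes were named, by smallest p or highest mean. Hoxa4, Hoxb1, Hoxc9, Hoxd3, Lef1, Dcn, Krt14, Pitx1 and Cd34 were named after their values were seen. Some genes are not reported here by name. Members and lists were chosen with earlier results of these data known.

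Alternatives were DESeq2 1.42.0, RLE scaling, no low-count filter, a replicate block, 1 fit of all groups, identical columns kept apart, and leaving out libraries. Positions, exon lengths and sequences came from GENCODE M21, where 52403 of the 52636 gene IDs and all 39 members were found.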

Additional observations from a re-analysis of the deposited data

Results flagged for a closer look

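In 4 cases every library of one genotype changed in one direction between stages and every library of the other genotype in the opposite direction, each relative to its own group mean at the earlier stage. The test of the difference itself did not pass in any of them (edgeR, contrast of both changes, Benjamini-Hochberg over all genes).

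Hoxd8 had a log2 difference of -1.40 for treated against mock skin (adjusted p = 1), higher in treated skin than the mock mean in fl/fl mice and lower in ΔEP mice. The mock means of this gene rest on 1 library of 38.1 CPM in fl/fl and 1 of 41.4 CPM in ΔEP mice.

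Hoxc4 had a log2 difference of 2.40 for tumor against mock skin (adjusted p = 0.651) and of 2.53 for tumor against treated skin (adjusted p = 0.3), with ΔEP tumors above and fl/fl tumors below the mean of skin. For tumor against treated skin, Hoxa3 had a log2 difference of 2.82 (adjusted p = 0.258), in the same direction. Without fl/fl tumor 1 the difference was called for Hoxa3 (4.45, adjusted p = 0.00472) and Hoxc4 (3.53, adjusted p = 0.0385) and 4 further members, 6 HOX genes in all, beside 7.53% of all genes called in that fit and 0.0118% with all libraries. Groups of 3 or fewer libraries were not searched for outliers.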

How the results depend on the processing

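No HOX gene that was called with all libraries turned its direction under the alternatives run. Hoxd8, not called for treated against mock skin with the genotypes combined (log2 -0.43), turned to 2.17 and was called higher without mock replicate 1 of both genotypes. The counts of HOX genes called lower in tumors with the genotypes combined stayed at 16 to 20 (mock skin) and all HOX calls at 14 to 15 (treated skin) when any library was left out. Other counts depended on the choices, and the cause was not tested. The shares beside them are of all genes called in either direction in the same fit. DESeq2 gave 12 calls for tumor against mock skin in fl/fl (14.3%) and 2 for the genotype difference of tumor against treated skin (1.21%). For treated against mock skin it gave 1 in ΔEP mice (0.384%) and 1 with the genotypes combined (1.42%). Without the low-count filter the counts were 5 for genotype in tumors (4.27%), and 17 and 9 for tumor against mock skin, fl/fl and ΔEP (7.64% and 13.1%). They were 2 and 2 for treated against mock skin, ΔEP and combined (0.654% and 1.3%), and 16 for tumor against treated skin, ΔEP (16.3%). The genotype difference of tumor against mock and treated skin gave 1 and 6 (0.522% and 2.76%). The fit of all groups gave 1 for genotype in tumors (0.668%), and 17 and 8 for tumor against mock skin, fl/fl and ΔEP (17.6% and 16.8%). Identical columns kept apart gave 8 for tumor against mock skin in ΔEP mice (25.5%) and 1 for treated against mock skin combined (1.06%). RLE scaling shifted no median by more than 0.1.

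Leaving out 1 library gave ranges of 0 to 7 calls for genotype in tumors (7 without fl/fl tumor 1), 0 to 8 for treated against mock skin in fl/fl (8 without fl/fl mock 1) and 0 to 2 combined (2 without fl/fl mock 1), 0 to 10 for tumor against mock skin in fl/fl (10 without fl/fl mock 1, 4 without fl/fl tumor 1, and 0 without fl/fl mock 2 or 3 or tumor 2 or 3) and 0 to 10 in ΔEP mice (10 without mock 2, 0 without any 1 tumor), 6 to 21 for tumor against treated skin in fl/fl (21 without fl/fl tumor 1, 6 and 7 without treated 1 and 3), 6 to 15 in ΔEP mice (6 without tumor 3, 15 without treated 3), and 0 to 6 for the genotype difference of tumor against treated skin (6 without fl/fl tumor 1). Of all genes, 16.9% were called for genotype in tumors without fl/fl tumor 1. Without fl/fl mock 1 the share was 15.1% for treated against mock skin in fl/fl and 3.25% combined. It was 21% for tumor against mock skin in fl/fl. For tumor against treated skin it was 24.3% without fl/fl tumor 1, and in ΔEP mice 29.2% without treated 3 and 17.5% without tumor 3. Where an arm was left with 1 library, that library is assumed to vary like the other group. Of the single called genes, 74 values lost their call without 1 library and 10 under other settings.

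The mean number of members at 1 CPM or more, 23.7, 21.5, 22.7, 20.7, 11.7 and 18.3 in the order mock, treated and tumor (fl/fl, then ΔEP), moved at 10 counts to 17.5 (ΔEP mock), 18.7 (ΔEP treated), 5.67 and 15.3 (fl/fl and ΔEP tumors), at 0.5 CPM to 25.7, 23.5, 25, 24.3 and 15.3 (all but ΔEP tumors), and without TMM to 24.3 in fl/fl mock skin. At 2808550 counts a read was worth more in fl/fl tumor 1 than elsewhere. Levels under 1 CPM rest on few reads, the number depending on the library.

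Replicate numbers were not taken to pair the samples. The deviations of same-numbered libraries correlated at -0.585 to 0.439 in the pairings of 3, with values of both signs. In the comparisons with 2 pairs, too few to settle it, they correlated at 0.811 and 0.609 between mock genotypes, whose replicates 1 share the high hair genes, at 0.605 and 0.141 for treated and at 0.109 and 0.139 for tumor against mock skin in ΔEP mice. A replicate block gave 2 calls in place of 5 for tumor against mock skin in ΔEP mice (6.24% of all genes in place of 14.3%). It gave 9 in place of 13 for tumor against treated skin in fl/fl (11.9% in place of 18%), and moved no other count by over 1.5 times.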

Other observations

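Beside the HOX genes, the cell type lists changed in tumors against mock skin with the genotypes combined (edgeR, background as above). Of hair shaft genes 14 of 20 tested were lower and 0 higher, of hair matrix regulators 6 of 10 lower and 1 higher, and of melanocyte genes 6 of 6 lower. Basal keratinocyte genes were higher in 4 of 7 and lower in 0. Hair follicle stem cell genes were higher in 2 and lower in 3 of 9, and differentiated keratinocyte genes higher in 1 and lower in 2 of 7. Fibroblast genes were lower in 4 of 9, endothelial genes in 1 of 3 and leukocyte genes in 1 of 5, and 0 of these were higher. Sebaceous gland genes were called in neither direction (7 tested), while 1 of 2 tested muscle genes and 1 of 2 tested Merkel cell genes were higher.

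Of 17 positional homeobox and T-box genes outside the clusters 6 were tested, and 1 was higher and 1 lower in tumors than in mock skin. Pitx1 was the higher one (adjusted p = 0.00264, edgeR). Tbx15, a gene of trunk skin and limb, was the lower one (log2 -3.80 ± 0.76, adjusted p = 0.00156), at 0 to 0.36 CPM in tumors and 0.54 to 6.87 CPM in skin. Between the tumor genotypes 0 genes of these 16 lists were called.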
